A study of Arabidopsis thaliana with 24 samples.

Results

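The comparison described here is that of the Arabidopsis thaliana double mutant dpe2/phs1 with its wild type Col-0 in the Prior Period, in whole shoots at 3 weeks after germination. Its members are the 3 dpe2/phs1 libraries (dP) and the 3 Col-0 libraries (wP) whose titles name this period, 6 of the 24 libraries of the series, and all genes of the table were considered. The dpe2/phs1 plants lack the products of both DPE2 and PHS1, whereas Col-0 has both, and the alleles are not named in the sources used here. Both genotypes were grown on soil in a light/dark regime and harvested after the same time in the light, after the seedlings had been raised on medium with sucrose. The labels give whole shoots as the material, whereas the methods of the study speak of leaves. The Prior Period is named for the stage before the mutant enters its period of reduced granule number, and the age at which that period began varied between growth batches. The other groups of the series, used below only for comparison, are young and mature leaves with petioles of both genotypes at 5 weeks and shoots of the Recovery Period at 7 weeks. The replicates are given as biological replicates, and whether plants were pooled for a library is not given in the sources used here.

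Leaf starch is made in the chloroplast in the light from ADP-glucose by starch synthases and branching enzymes, and is degraded at night after phosphorylation of the granule surface, mainly to maltose. Maltose leaves the chloroplast through the transporter MEX1 and is converted in the cytosol by the transglucosidase DPE2. PHS1 is the plastidial glucan phosphorylase, which exchanges glucosyl units between glucose 1-phosphate and maltodextrins. Plants that lack both enzymes are known for chloroplasts with a single starch granule in young leaves and little starch in mature ones. The comparison asks which transcripts differ before that state, when granule numbers in the mutant are still close to those of Col-0.

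Depth was similar in both genotypes, with 19205199 to 19429260 recovered reads in dP and 17803563 to 18709259 in wP, so that 3 reads on a gene of 1 kb corresponded to 0.154 to 0.156 FPKM in dP and 0.160 to 0.169 FPKM in wP. FPKM is the number of fragments of a gene scaled to its length and to the mapped fragments of its library. Replicates were closer to each other in dP, with a median SD of log2 values of 0.0846, than in wP, with 0.174. The wP libraries also differed among themselves in how expression depended on gene length. The median deviation of the longest 10% of the 17424 protein-coding genes minus that of the shortest 10% was -0.33, -0.20 and -0.31 in dP replicates 1 to 3, against 0.80, -0.22 and 0.26 in wP replicates 1 to 3, on the log2 scale. The share of FPKM in chloroplast genes followed the same order within wP, with 0.0750%, 0.0780% and 0.0827% in dP, against 0.322%, 0.117% and 0.211% in wP. The part of these differences in the results was not tested, and counts with the length trend removed are given where they moved a result. Markers of leaf were at high levels, with a sum of 22374 to 23606 FPKM in dP and 23774 to 30748 FPKM in wP. None of the 6 root and none of the 8 flower markers reached a mean of 1 FPKM. The meristem genes STM and KNAT1 were detected at low levels and did not pass the test. In whole shoots, fewer cells of a type and less RNA per cell cannot be told apart.

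Both mutated genes were lower in all dpe2/phs1 libraries. DPE2 (AT2G40840, chromosome 2, 17044932 to 17051062 of TAIR10) was measured at 46.0, 43.8 and 41.7 FPKM in dpe2/phs1, against 112, 83.9 and 99.7 FPKM in Col-0. PHS1 (AT3G29320, chromosome 3, 11252807 to 11257814) was measured at 22.5, 20.9 and 21.2 FPKM in dpe2/phs1, against 180.4, 117 and 139 FPKM in Col-0. The libraries did not overlap for either gene. On the log2(FPKM + 1) scale the change was -1.14 ± 0.11 (SE) for DPE2 and -2.68 ± 0.14 for PHS1, with limma adjusted p of 1.35e-04 and 7.24e-06. Reads of both genes were thus still counted in the mutant, and where along the transcript they lie cannot be seen in gene-level values.

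Of 18133 genes with a mean of at least 1 FPKM in either genotype, 7990 (44.1%) passed an adjusted p of 0.05 in limma. Of these, 4837 (26.7% of the genes tested) were higher in dpe2/phs1 and 3153 (17.39%) were lower. A change of more than 2-fold was found for 787 genes that were higher (4.34%) and 445 that were lower (2.45%), together 6.79%. The libraries of the genotypes did not overlap for 10254 genes (56.5%). The split between higher and lower depended on the scaling. Higher genes made up 60.5% of the calls, against 52.5% with median-of-ratios rescaling, 53.0% with TPM rescaling, 49.7% with quantile normalization and 50.7% with the length trend removed. Among protein-coding genes, 1680 of the 4356 shortest genes (up to 1204 bases) were higher and 504 lower, whereas 508 of the 4356 longest (from 2253 bases) were higher and 978 lower. The median log2 fold change over all genes tested was 0.06. The medians of gene lists below are read beside it, and their counts beside the shares of 26.7% higher and 17.39% lower. Fold changes are on the log2(FPKM + 1) scale, also where a gene is said to be higher by a value, and are followed by their SE after the ± sign.

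**Figure D1:**
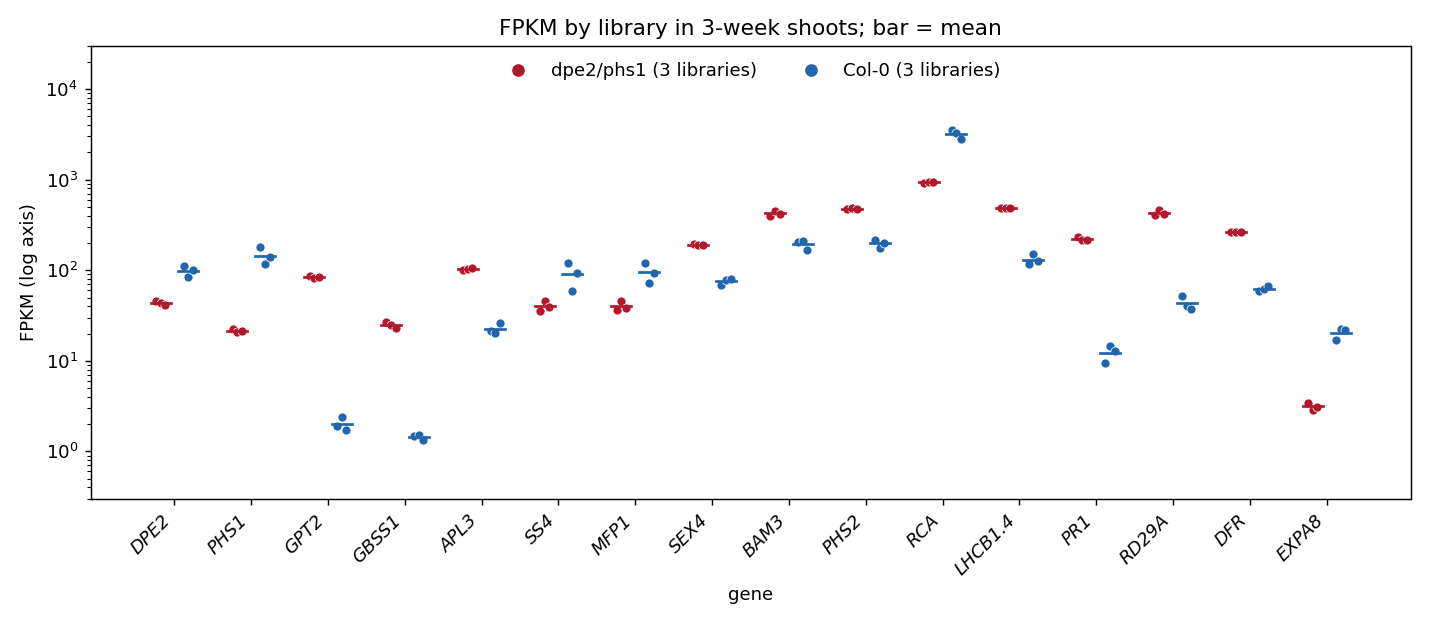
FPKM on a log axis of 16 genes in the 3 dpe2/phs1 libraries (red) and the 3 Col-0 libraries (blue), with bars for the means. The points of the genotypes do not overlap for any of these genes, with GPT2 at 86.3, 82.2 and 84.4 FPKM in dpe2/phs1, against 1.89, 2.40 and 1.74 FPKM in Col-0.

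The largest change among the genes of starch metabolism was that of GPT2, the glucose 6-phosphate/phosphate translocator of the plastid envelope, which imports glucose 6-phosphate. GPT2 was measured at 86.3, 82.2 and 84.4 FPKM in dpe2/phs1, against 1.89, 2.40 and 1.74 FPKM in Col-0, a log2 fold change of 4.83 ± 0.10 and a ratio of means of 42.0. Its isoform GPT1 was measured at 13.9, 14.7 and 14.4 FPKM in dpe2/phs1, against 15.7, 17.61 and 17.7 FPKM in Col-0, and did not pass the test. The same separation was seen for GBSS1, the granule-bound starch synthase that makes amylose, at 27.0, 24.7 and 22.8 FPKM in dpe2/phs1, against 1.47, 1.52 and 1.35 FPKM in Col-0. The log2 fold change of GBSS1 was 3.40 ± 0.11, and the adjusted p in limma was 1.13e-07 for GPT2 and 1.01e-06 for GBSS1.

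The promoters of 4 genes that rose are shown as the 250 bases before the RefSeq gene start (TAIR10.1), because the evening element of clock-regulated genes or the core of the dehydration-responsive element (DRE) lies in them. GPT2 and the clock gene PRR5 hold an evening element. The DRE core lies in RD29A and LTI30, dehydration and cold genes described below, and also in PRR5. Capitals mark matches to the G-box CACGTG, the evening element AAAATATCT, the W-box TTGACC or TTGACT, the I-box GATAAG and the DRE core CCGAC on either strand, and the last of these motifs was added after values had been seen.
GPT2, chr1:22824164-22824413, plus strand: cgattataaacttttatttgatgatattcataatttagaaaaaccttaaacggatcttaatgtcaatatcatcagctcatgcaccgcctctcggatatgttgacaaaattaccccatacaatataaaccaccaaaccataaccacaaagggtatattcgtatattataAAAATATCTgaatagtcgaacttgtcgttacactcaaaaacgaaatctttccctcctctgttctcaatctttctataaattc
PRR5, chr5:8358547-8358796, minus strand: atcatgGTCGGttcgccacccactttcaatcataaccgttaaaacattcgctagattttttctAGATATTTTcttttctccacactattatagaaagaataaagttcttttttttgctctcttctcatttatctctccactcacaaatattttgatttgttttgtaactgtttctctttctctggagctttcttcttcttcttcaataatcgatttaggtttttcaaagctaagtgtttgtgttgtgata
RD29A, chr5:21240467-21240716, plus strand: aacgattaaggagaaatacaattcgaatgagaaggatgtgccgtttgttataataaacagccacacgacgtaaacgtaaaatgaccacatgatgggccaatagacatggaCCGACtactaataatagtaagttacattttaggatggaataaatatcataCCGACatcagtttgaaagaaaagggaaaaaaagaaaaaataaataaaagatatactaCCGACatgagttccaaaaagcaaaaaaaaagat
LTI30, chr3:18940393-18940642, plus strand: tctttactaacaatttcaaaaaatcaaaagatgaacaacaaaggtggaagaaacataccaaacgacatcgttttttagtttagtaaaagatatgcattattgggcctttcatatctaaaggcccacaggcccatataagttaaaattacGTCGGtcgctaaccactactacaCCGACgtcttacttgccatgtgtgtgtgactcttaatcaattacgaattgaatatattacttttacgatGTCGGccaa

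The evening element of GPT2 lies 82 to 74 bases before the gene start, and that of PRR5 187 to 179 bases before it. RD29A holds the DRE core at 3 positions, beginning 140, 90 and 33 bases before the gene start, and LTI30 at 3 positions, beginning 101, 78 and 9 bases before it. Over the 17917 nuclear genes tested that have such a promoter, 2.57% held the evening element, 13.2% the DRE core, 7.31% the G-box, 27.4% the W-box and 12.5% the I-box. Among the 779 genes more than 2-fold higher in dpe2/phs1 the evening element was in 6.16% and the DRE core in 17.1%. Among the 376 genes more than 2-fold lower, they were in 1.60% and 9.31%. Of the 12 largest rises named below, 2 held the evening element, 2 the DRE core, 2 the W-box, 2 the I-box and none the G-box. The W-box was about as frequent in the genes that were higher (29.0%) as in those that were lower (29.0%). A match is a description of these letters and not a binding site.

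Of 18 starch synthesis genes tested, 9 were higher and 4 lower, with a median log2 fold change of 0.33. ADP-glucose pyrophosphorylase, which makes the glucosyl donor, was higher in most of its subunits. The small subunit APS1 was measured at 390.4, 389 and 393 FPKM in dpe2/phs1, against 267, 258 and 265 FPKM in Col-0. The large subunits APL3 and APL4, which are known from sink tissues, differed most. APL3 was measured at 101, 103 and 105 FPKM in dpe2/phs1, against 21.3, 20.5 and 26.1 FPKM in Col-0 (2.14 ± 0.10). APL4 was measured at 14.4, 14.8 and 15.4 FPKM in dpe2/phs1, against 6.17, 4.49 and 6.16 FPKM in Col-0 (1.28 ± 0.13). APL1, the main large subunit of leaves, went the other way, at 72.4, 69.9 and 65.4 FPKM in dpe2/phs1, against 90.4, 93.2 and 94.4 FPKM in Col-0 (-0.42, limma adjusted p of 0.00318). APL2 was higher by 0.53 on the log2 scale.

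The soluble starch synthases did not move with GBSS1. SS1 and SS2, which elongate short and intermediate chains of amylopectin, had log2 fold changes of -0.004 and -0.01 and did not pass the test. SS4, which is required for the initiation of granules, was lower at 35.9, 45.2 and 39.6 FPKM in dpe2/phs1, against 121, 59.4 and 94.2 FPKM in Col-0. Its change was -1.11 ± 0.22 (limma adjusted p of 0.00459), and the libraries did not overlap although the Col-0 values were far apart. SS5, a related protein without glucosyl transfer activity, was also lower (-0.54 ± 0.11). SS3 passed the test at -0.71 ± 0.18, but not without dP replicate 1, where its value was -0.66, nor without wP replicate 3, where it was -0.71. The branching enzyme BE1 and the debranching isoamylase ISA1 were higher by 0.80 and 0.56.

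Of the proteins that set granule number besides the synthases, 4 were tested and 1 passed the test. MFP1, a thylakoid-associated protein known to place granule initiation, was measured at 36.3, 45.8 and 38.4 FPKM in dpe2/phs1, against 122, 73.0 and 93.8 FPKM in Col-0, a log2 fold change of -1.21 ± 0.17 (adjusted p of 8.96e-04 in limma). The values of PTST2 and PTST3 were -0.20 and -0.28, and that of PII1 was -0.32, none past the threshold. Without wP replicate 2, PTST3 at -0.44 and PII1 at -0.50 passed as well, so that 3 of the 4 were lower. SS4 and MFP1 are long genes, and both were highest in wP replicate 1, the library with the largest length deviation. They passed the test with the length trend removed and without each single library.

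Among 21 starch degradation genes tested, 8 were higher and 6 lower, with a median log2 fold change of 0.19. With the length trend removed, 11 were higher and 7 lower. Of the genes that act at the granule surface, SEX4 and GWD1 were higher. SEX4, a glucan phosphatase, was measured at 194, 188 and 191 FPKM in dpe2/phs1, against 69.2, 78.1 and 79.8 FPKM in Col-0 (1.33 ± 0.08, adjusted p of 1.84e-05 in limma). GWD1, the dikinase that phosphorylates the granule, was higher by 0.82 ± 0.18, and its wP values of 190.0, 109 and 134 FPKM were uneven. The related PWD had a log2 fold change of 0.19 and did not pass the test. LSF1, a phosphatase-like protein of the plastid, was higher by 0.59.

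The beta-amylases, the enzymes that release maltose, differed in direction. BAM3, the main catalytic isoform of leaves at night, was measured at 402, 448 and 422 FPKM in dpe2/phs1, against 207, 210.4 and 167 FPKM in Col-0, and its libraries did not overlap. BAM1, the other catalytic isoform of the plastid, had a log2 fold change of 0.14 and did not pass. BAM9, which lacks catalytic activity, was lower at 1.27, 1.26 and 1.63 FPKM in dpe2/phs1, against 5.28, 6.83 and 6.29 FPKM in Col-0 (-1.58 ± 0.13). BAM2, BAM5 and AMY2 were lower at log2 fold changes of -0.65, -0.49 and -0.64, and BAM6 at -0.73, the last not past the threshold without dP replicate 1 (-0.63) or without wP replicate 3 (-0.67). The debranching enzymes also split, with ISA3 higher (0.75 ± 0.09) and LDA, the limit dextrinase, lower (-0.82 ± 0.13).

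PHS2, the cytosolic counterpart of PHS1, which acts on heteroglycans, was higher in every mutant library. It was measured at 471, 492 and 476 FPKM in dpe2/phs1, against 216, 177 and 201 FPKM in Col-0, a log2 fold change of 1.28 ± 0.10 (adjusted p of 3.86e-05 in limma). DPE1, the plastidial disproportionating enzyme and counterpart of DPE2, was measured at 62.3, 60.3 and 62.1 FPKM in dpe2/phs1, against 46.6, 47.4 and 53.5 FPKM in Col-0. Its change of 0.32 ± 0.08 passed the test (adjusted p of 0.0142 in limma) but not with quantile normalization (0.21), without dP replicate 1 (0.31) or without dP replicate 3 (0.32).

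Of 10 translocators of the plastid envelope tested, 3 were higher and 4 lower, with a median of -0.22. Both nucleotide transporters that import ATP were higher beside GPT2. NTT1 was measured at 49.3, 48.2 and 48.1 FPKM in dpe2/phs1, against 28.6, 27.4 and 27.4 FPKM in Col-0. NTT2 was measured at 155, 140.4 and 153 FPKM in dpe2/phs1, against 88.1, 82.1 and 85.8 FPKM in Col-0, and the libraries of the genotypes did not overlap for either gene. The exporters of the products of starch breakdown were lower, with 15.0, 16.3 and 15.9 FPKM in dpe2/phs1, against 24.03, 30.1 and 23.8 FPKM in Col-0 for the maltose transporter MEX1. The glucose transporter pGlcT was lower at a log2 fold change of -0.57, the xylulose 5-phosphate translocator XPT at -0.95 and the phosphoenolpyruvate translocator PPT2 at -1.11. The triose phosphate translocator TPT, the main export route in the light, had a log2 fold change of -0.18 and did not pass the test. The number of lower members rose to 7 with quantile normalization.

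**Figure D2:**
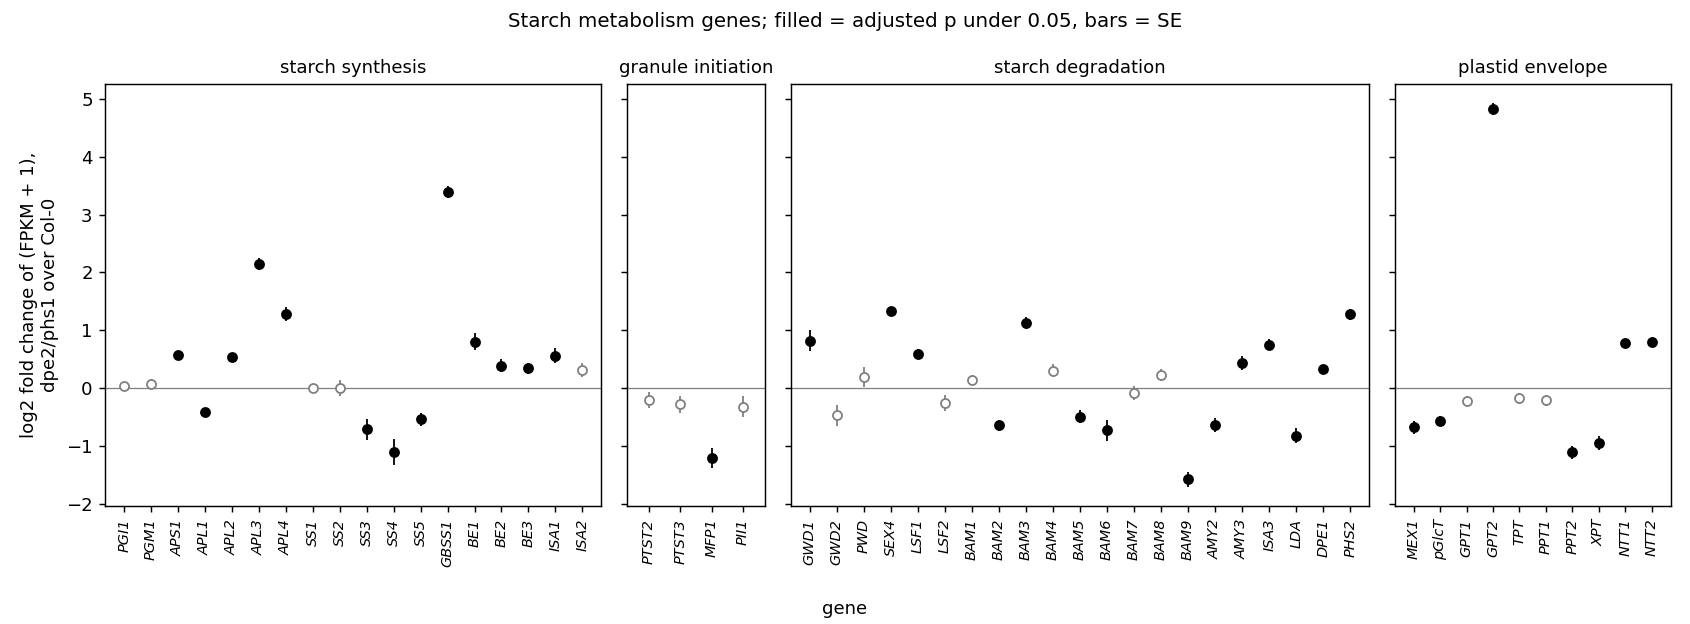
Log2 fold change of (FPKM + 1), dpe2/phs1 over Col-0, for each tested gene of starch synthesis, granule initiation, starch degradation and the plastid envelope, with SE bars. Filled points passed an adjusted p of 0.05, and GPT2 at 4.83 and GBSS1 at 3.40 stand above the rest, whereas BAM9 is lowest at -1.58.

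Genes of sucrose metabolism and sugar transport were divided, with 8 of 20 higher and 7 lower and a median log2 fold change of 0.01. The higher members numbered 4 without dP replicate 1 and 5 without dP replicate 2, without dP replicate 3 or with TPM rescaling, and the lower ones 4 without dP replicate 2 or without dP replicate 3. STP13, a hexose importer of the plasma membrane, was measured at 21.2, 21.4 and 21.2 FPKM in dpe2/phs1, against 3.35, 4.003 and 3.36 FPKM in Col-0 (2.29 ± 0.10). STP1, another hexose importer, differed the opposite way, at 6.59, 5.89 and 7.16 FPKM in dpe2/phs1, against 16.3, 15.0 and 16.2 FPKM in Col-0 (-1.16 ± 0.10). SUS1, a sucrose synthase, was higher by 1.03, whereas SUS6 and the sucrose phosphate synthase SPSC were lower at log2 fold changes of -1.06 and -1.03. The vacuolar sugar carriers TMT2 and SWEET17 were higher by 0.67 and 0.87, and the phloem-associated sucrose exporter SWEET12 was lower at a log2 fold change of -0.62. The most changed sugar transporter lay outside the list and was chosen after its values were seen. AT5G18840, described in the table as a sugar transporter of the ERD6-like group, was measured at 52.7, 49.5 and 55.6 FPKM in dpe2/phs1, against 0.446, 0.345 and 0.481 FPKM in Col-0 (5.23 ± 0.10). BFRUCT4, a vacuolar invertase, was among the largest falls of nuclear genes, at 16.04, 14.5 and 14.1 FPKM in dpe2/phs1, against 77.5, 67.6 and 68.3 FPKM in Col-0.

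The trehalose phosphate synthase family, whose product is a signal of sucrose status, had 2 members higher and 4 lower of 8 tested, with a median of -0.36. TPS1, the catalytically active member, was lower at a log2 fold change of -0.68 and TPS8 at -1.19. TPS5 was measured at 31.8, 35.7 and 31.3 FPKM in dpe2/phs1, against 18.9, 13.3 and 15.8 FPKM in Col-0 (1.01 ± 0.13), and TPS10 was higher by 0.80. Markers of carbon starvation, which respond to low sugar, showed 6 members higher and 5 lower of 13 tested, with a median of 0.22. The lower members numbered 3 without dP replicate 1 or without dP replicate 2. MIOX2, an inositol oxygenase, was measured at 22.0, 23.2 and 22.1 FPKM in dpe2/phs1, against 0.832, 0.772 and 0.891 FPKM in Col-0 (3.68 ± 0.10). BCAT2, an aminotransferase of branched-chain amino acids, was measured at 3.93, 3.79 and 4.60 FPKM in dpe2/phs1, against 0.277, 0.134 and 0.264 FPKM in Col-0. DRM2, a dormancy-associated gene, was measured at 265, 251 and 245 FPKM in dpe2/phs1, against 67.9, 97.6 and 95.03 FPKM in Col-0. ASN1, the dark-inducible asparagine synthetase, remained at low levels, with 1.94, 1.73 and 1.48 FPKM in dpe2/phs1, against 0.772, 0.530 and 0.592 FPKM in Col-0, and passed the test at 0.74 ± 0.14. AKINB1, a regulatory subunit of the SnRK1 kinase, was lower at a log2 fold change of -1.20 and MCCA, of leucine breakdown, at -0.52. With single libraries left out, the log2 fold change lay between -0.54 and -0.46 for DIN3 and between -0.51 and -0.33 for DIN4. For DIN10 it lay between -0.44 and -0.30, whereas for DIN9 it lay between 0.08 and 0.31.

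Nuclear genes of photosynthesis separated by function. All 10 Calvin cycle genes tested had lower values in dpe2/phs1, and 9 passed the test, with a median log2 fold change of -1.01. RCA, which activates Rubisco, was measured at 916, 933 and 947 FPKM in dpe2/phs1, against 3562, 3288 and 2807 FPKM in Col-0 (-1.78 ± 0.12, adjusted p of 2.30e-05 in limma). PRK, phosphoribulokinase, was lower at a log2 fold change of -1.32, SBPASE, sedoheptulose bisphosphatase, at -1.03 and GAPA at -0.86. Of the small subunits of Rubisco, RBCS2B was lower at a log2 fold change of -1.73, RBCS3B at -1.17 and RBCS1B at -0.98. RBCS1A, the most abundant of them, was measured at 12742, 14398 and 13828 FPKM in dpe2/phs1, against 20102, 22126 and 16024 FPKM in Col-0, and missed the threshold (adjusted p of 0.0528 in limma). RBCS genes are near-identical copies, so reads may be divided unevenly among them. BCA1, a carbonic anhydrase of the chloroplast outside this list, was lower at 835, 817 and 813 FPKM in dpe2/phs1, against 3070.7, 3066 and 2980.2 FPKM in Col-0.

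The antenna genes, which encode the chlorophyll-binding proteins of the photosystems, went the other way, with 9 higher and 1 lower of 17 tested and a median of 0.51. LHCB1.4 was measured at 493, 482 and 484 FPKM in dpe2/phs1, against 117, 149.7 and 126 FPKM in Col-0 (1.89 ± 0.10). LHCB2.1 and LHCB2.2 were higher by 0.97 and 0.92, and LHCA4 and LHCA1 of photosystem I by 0.93 and 0.73. LHCB4.3 was the single member that was lower, at 23.8, 25.3 and 25.4 FPKM in dpe2/phs1, against 43.7, 57.3 and 54.0 FPKM in Col-0 (-1.02 ± 0.11). LHCB1.3, the most abundant member, was at 13711, 13172 and 13317 FPKM in dpe2/phs1, against 8951, 12099.6 and 9859 FPKM in Col-0, and did not pass the test. LHCB1 copies share sequence and their separate values are uncertain. With the length trend removed or without wP replicate 1, 2 members were lower.

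Transcripts of the organelle genomes were lower as a group, but chloroplast genes made up at most 0.0827% of FPKM in dP and 0.322% in wP. Their level differed between the Col-0 libraries, and the part of library preparation in these values was not tested. Of 94 chloroplast genes tested, 69 were lower and 3 higher, with a median log2 fold change of -1.52, and of 14 mitochondrial genes 8 were lower and none higher. The summed FPKM of chloroplast genes was 522, 537 and 574 in dpe2/phs1, against 2003, 810 and 1386 in Col-0. Organelle genes made up 11 of the 12 largest falls with a symbol, the other being PHS1. PSBH, a subunit of photosystem II, was at 0.464, 1.64 and 0.928 FPKM in dpe2/phs1, against 38.5, 8.57 and 29.9 FPKM in Col-0. PETB, cytochrome b6, was at 1.43, 1.61 and 0.954 FPKM in dpe2/phs1, against 44.2, 6.54 and 30.4 FPKM in Col-0. Other chloroplast genes among them were RPL36, PSAI, PETD, RPOA, PSBN and ATPA, with log2 fold changes between -3.26 and -2.56. RRN26, an rRNA gene of the mitochondrion, was at 7.62, 4.16 and 4.61 FPKM in dpe2/phs1, against 85.6, 52.3 and 44.2 FPKM in Col-0. In Col-0 the levels of PSBH and PETB varied several-fold between replicates, highest in replicate 1 and lowest in replicate 2. This is also the order of the length deviations of these libraries. RRN26 varied less in Col-0 and was lowest in replicate 3.

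Clock genes differed at the single time of day sampled, with 9 of 14 higher and 3 lower and a median of 0.95. Without dP replicate 1 or without wP replicate 3, 1 was lower. The pseudo-response regulators PRR5 and PRR7 rose, with PRR5 at 28.0, 27.4 and 26.5 FPKM in dpe2/phs1, against 6.80, 7.26 and 7.33 FPKM in Col-0 (1.80 ± 0.09). PRR7 was higher by 1.398, and GI, which stabilises the photoperiod receptor, was measured at 41.9, 43.7 and 40.9 FPKM in dpe2/phs1, against 16.7, 9.75 and 13.7 FPKM in Col-0. FKF1 was higher by 1.298, LNK1 by 1.25, and LUX and ELF4 of the evening complex by 0.97 and 0.96. ELF3 of the same complex went the other way, between -0.62 and -0.35 with single libraries left out. RVE4 lay between -0.51 and -0.34 in the same fits. TOC1 had a log2 fold change of 0.18 and did not pass. BOA, a relative of LUX, was lower at a log2 fold change of -0.69. The morning genes CCA1 and LHY were below 1 FPKM in all 6 libraries, at 0.630, 0.842 and 0.653 FPKM in dpe2/phs1, against 0.344, 0.166 and 0.234 FPKM in Col-0, for CCA1, and were not tested. The evening element was found in 5 of the 14 tested promoters of this list (35.7%). They were those of PRR5, FKF1 and LUX, which were higher, of TOC1, which did not pass, and of BOA, which was lower. The promoters of PRR7, GI, LNK1 and ELF4, which were also higher, did not hold it.

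The anthocyanin and flavonoid pathway was the list with the highest median, 1.81, with 13 of 14 tested genes higher and none lower. Chalcone synthase CHS, the entry enzyme, was measured at 386, 368 and 377 FPKM in dpe2/phs1, against 95.8, 107 and 89.1 FPKM in Col-0 (1.95 ± 0.09). The next steps, chalcone isomerase CHI (AT3G55120) and the flavonoid hydroxylase F3PH, were higher by 1.48 and 1.87. DFR, dihydroflavonol reductase and the first step toward anthocyanins, was measured at 265, 263 and 265 FPKM in dpe2/phs1, against 58.4, 62.4 and 67.9 FPKM in Col-0 (2.06 ± 0.08). LDOX was higher by 1.79, and the decorating enzymes UF3GT, UGT75C1 and 5MAT by 1.89, 1.54 and 1.25. GSTF12, needed to carry anthocyanins to the vacuole, was higher by 1.82. FLS1, of the competing flavonol branch, was higher by 0.53 only.

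Of the transcription factors of the pathway, PAP1, PAP2 and TT8 rose. PAP1 (MYB75 in the table) was measured at 66.1, 63.5 and 63.9 FPKM in dpe2/phs1, against 9.88, 13.2 and 13.5 FPKM in Col-0 (2.32 ± 0.12). PAP2 (MYB90) was at 6.68, 5.14 and 5.65 FPKM in dpe2/phs1, against 0.112, 0.163 and 0 FPKM in Col-0, from 339 reads in dpe2/phs1 and 5 in Col-0. TT8, their bHLH partner, was higher by 1.31. MYB111, a regulator of flavonols, had a log2 fold change of 0.28 and did not pass the test. F3H is listed at or near 0 in all 6 libraries and was not tested. The counts of this list were the same with the length trend removed, with median-of-ratios rescaling and without wP replicate 1.

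Genes of abscisic acid, dehydration and cold responses formed the second list with a high median, 1.47, with 20 of 23 tested genes higher and 1 lower. NCED3, the regulated step of abscisic acid synthesis, was measured at 2.70, 1.96 and 2.15 FPKM in dpe2/phs1, against 0.453, 0.498 and 0.587 FPKM in Col-0 (1.11 ± 0.14). The phosphatases of the signalling pathway HAI2, HAI1, ABI2 and ABI1 were higher by 1.53, 1.21, 0.76 and 0.57. The cold-induced activators CBF3 and CBF1, which bind the DRE, were both higher. CBF3 was measured at 5.48, 4.79 and 5.11 FPKM in dpe2/phs1, against 0.606, 0.625 and 0.730 FPKM in Col-0 (1.89 ± 0.12). CBF1 had 134 reads in dpe2/phs1 and 3 in Col-0, a ratio of 42.3 with a 95% exact interval of counting error of 14.1 to 207. Their known targets were also higher. RD29A was measured at 405, 468 and 422 FPKM in dpe2/phs1, against 51.5, 40.0 and 37.6 FPKM in Col-0 (3.31 ± 0.12). LTI30 (XERO2 in the table) was measured at 22.0, 24.8 and 24.7 FPKM in dpe2/phs1, against 1.74, 2.24 and 3.09 FPKM in Col-0 (2.90 ± 0.15). COR15A was measured at 1782, 1672 and 1691 FPKM in dpe2/phs1, against 500.2, 838 and 706 FPKM in Col-0 (1.36 ± 0.17).

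The dehydrins RAB18, COR47 and ERD10 were higher by 2.24, 1.57 and 1.48, and KIN1 by 2.52. KIN1 and KIN2 are near-identical, so their separate values are uncertain. ADH1, alcohol dehydrogenase, was higher by 1.91. GOLS1, a galactinol synthase, was the member that was lower (-0.61 ± 0.15, not tested with a filter of 5 FPKM), whereas GOLS3 was higher by 1.71. P5CS1, of proline synthesis, was measured at 54.3, 51.9 and 53.0 FPKM in dpe2/phs1, against 60.6, 51.5 and 60.1 FPKM in Col-0, and did not pass the test. POX1, the proline dehydrogenase of the opposite reaction, was among the largest rises, at 57.7, 53.1 and 54.8 FPKM in dpe2/phs1, against 7.67, 6.18 and 7.45 FPKM in Col-0 (2.80 ± 0.10). The DRE core was in 6 of the 23 tested promoters of this list (26.1%).

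**Figure D3:**
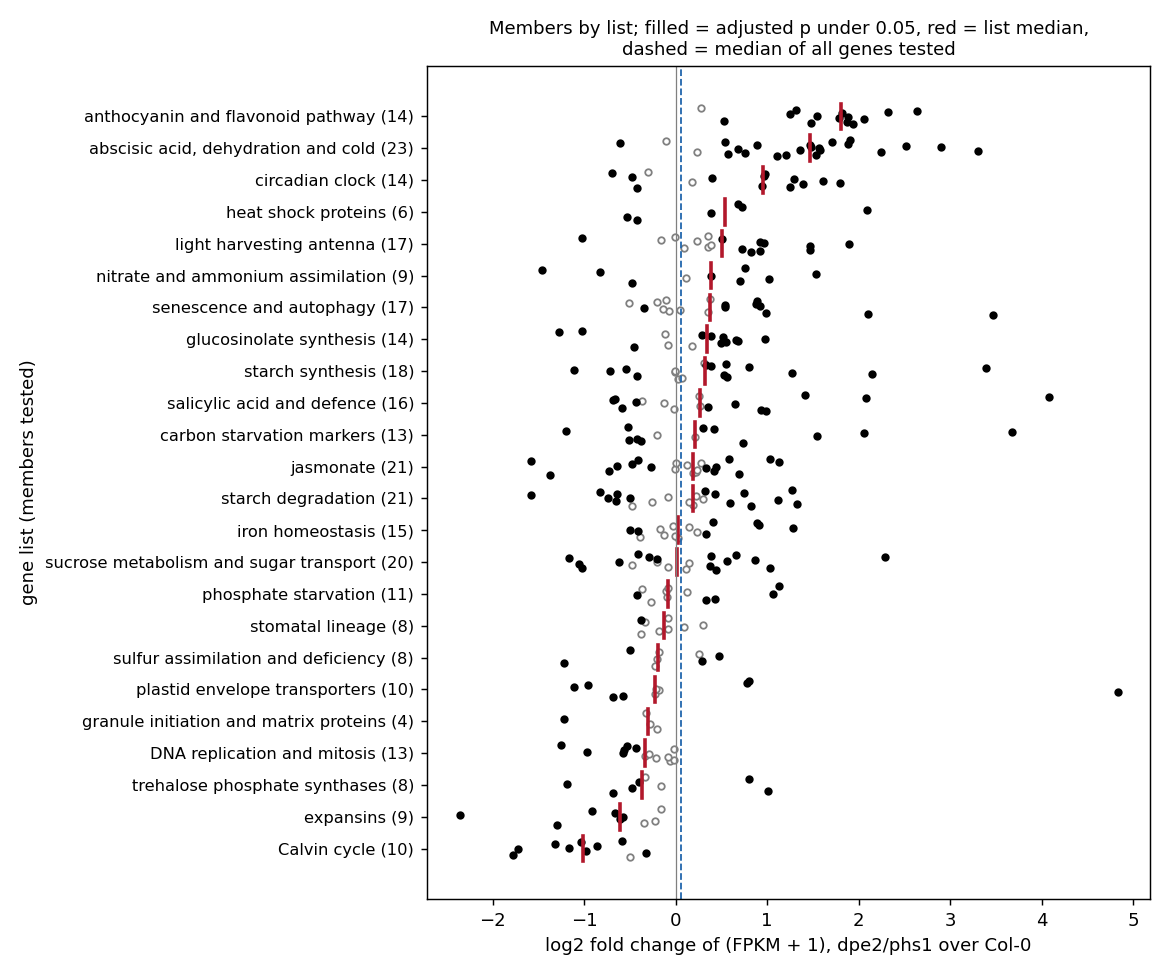
Log2 fold change of (FPKM + 1), dpe2/phs1 over Col-0, for the tested members of each gene list, ordered by the list median (red bars), with filled points for an adjusted p under 0.05. The medians run between -1.01 for the Calvin cycle and 1.81 for the anthocyanin pathway, and the dashed line is the median of 0.06 over all genes tested.

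Salicylic acid and defence genes had 7 members higher and 4 lower of 16 tested, with a median of 0.26. With a filter of 5 FPKM, 4 were higher, and without dP replicate 2, 2 were lower. PR1, the classical marker of this response, was measured at 233, 215 and 216 FPKM in dpe2/phs1, against 9.40, 14.6 and 12.98 FPKM in Col-0 (4.08 ± 0.14, adjusted p of 1.38e-06 in limma). PR5 was higher by 1.41, whereas PR2 was at 26.6, 24.2 and 26.8 FPKM in dpe2/phs1, against 19.7, 25.2 and 19.8 FPKM in Col-0, and did not pass. ICS1, the main enzyme of salicylic acid synthesis, was measured at 9.13, 9.31 and 9.58 FPKM in dpe2/phs1, against 4.12, 3.96 and 4.55 FPKM in Col-0 (0.99 ± 0.10), and PBS3, which acts after it, was higher by 0.93. FMO1, of systemic resistance, had 375 reads in dpe2/phs1 and 3 in Col-0, a ratio of 118 after scaling to the totals, with a 95% exact interval of counting error of 40.1 to 576. EDS1 and WRKY70, regulators of the response, were lower at log2 fold changes of -0.58 and -0.68. CHI (AT2G43570 in the table, not the chalcone isomerase), described as a chitinase, was higher at 33.9, 30.4 and 30.2 FPKM in dpe2/phs1, against 3.16, 3.63 and 1.88 FPKM in Col-0.

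Jasmonate genes were divided evenly, with 7 higher and 7 lower of 21 tested and a median of 0.20. The lipoxygenase LOX2, which starts jasmonate synthesis in the plastid, was measured at 438, 449 and 442 FPKM in dpe2/phs1, against 1408, 1050.0 and 1027 FPKM in Col-0 (-1.37 ± 0.13). The response marker VSP1 was lower at 14.5, 13.2 and 12.5 FPKM in dpe2/phs1, against 38.2, 45.3 and 42.9 FPKM in Col-0 (-1.58 ± 0.10), and VSP2 was lower at a log2 fold change of -0.41. The repressors JAZ5 and JAZ9 were lower at log2 fold changes of -0.64 and -0.48, whereas JAZ3 was higher by 0.45. TAT3, a tyrosine aminotransferase, and CYP94B3, which inactivates the hormone, were higher by 1.03 and 1.14. MYC2 is listed at 0 in all 6 libraries and was not tested.

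Of 17 senescence and autophagy genes tested, 8 were higher and 1 lower, with a median of 0.38. SAG13, a short-chain dehydrogenase, was measured at 19.6, 15.8 and 16.3 FPKM in dpe2/phs1, against 0.714, 0.648 and 0.552 FPKM in Col-0 (3.47 ± 0.12), and SAG21 was higher by 2.11. ORE1, a NAC factor of leaf senescence, was at 1.61, 1.35 and 1.41 FPKM in dpe2/phs1, against 0.214, 0.249 and 0.244 FPKM in Col-0. SAG12, the cysteine protease that marks advanced senescence, stayed below 1 FPKM, with 0.118, 0.279 and 0.276 FPKM in dpe2/phs1, and is listed at 0 in all Col-0 libraries. The enzymes of chlorophyll breakdown had log2 fold changes of -0.14 for NYC1, -0.07 for SGR1 and 0.05 for PPH, none past the threshold, and PAO was lower at a log2 fold change of -0.35. Of the ATG8 autophagy family ATG8B, ATG8D and ATG8G were higher by 0.92, 0.88 and 0.89. With single libraries left out, ATG8A, ATG8C and ATG8I kept positive values and ATG8H changed sign. ATG8E lay between -0.72 and -0.35 and ATG8F between -0.30 and -0.11 in these fits. The lower genes of this list numbered 5 with the length trend removed, 4 with quantile normalization and 3 with TPM rescaling or without wP replicate 1.

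Genes of growth were lower where they passed the test. Of 9 expansins, which loosen cell walls, 6 were lower and none higher, with a median of -0.60, and with the length trend removed 8 were lower. EXPA8 was measured at 3.46, 2.87 and 3.11 FPKM in dpe2/phs1, against 17.0, 22.3 and 21.9 FPKM in Col-0 (-2.36 ± 0.13). EXPA1 was measured at 35.6, 34.6 and 33.7 FPKM in dpe2/phs1, against 77.7, 86.7 and 95.8 FPKM in Col-0 (-1.29 ± 0.09). Of 13 genes of DNA replication and mitosis, 6 were lower and none higher, with a median of -0.34. Those that were lower were CYCB1;1, CYCB1;2, CYCD3;1, CDKB2;1, CDKB2;2 and KNOLLE, cyclins, their kinases and a gene of cytokinesis. KNOLLE, the syntaxin of cytokinesis, was measured at 11.5, 13.7 and 12.2 FPKM in dpe2/phs1, against 36.1, 24.7 and 33.0 FPKM in Col-0 (-1.25 ± 0.14), and CYCB1;2 was lower at a log2 fold change of -0.96. The replication helicase genes MCM2 to MCM7 had values between -0.34 and -0.02, none past the threshold. Other wall genes were among the largest falls of nuclear genes, with the extensin-like LRX3 at 26.5, 28.2 and 25.9 FPKM in dpe2/phs1, against 164, 75.7 and 87.7 FPKM in Col-0. The arabinogalactan protein AGP31 was measured at 30.2, 31.2 and 29.6 FPKM in dpe2/phs1, against 159, 110.1 and 95.8 FPKM in Col-0.

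Of 9 genes of nitrate and ammonium assimilation, 5 were higher and 3 lower, with a median of 0.39. NIA1, one of the nitrate reductases, was measured at 14.6, 14.7 and 13.4 FPKM in dpe2/phs1, against 6.60, 6.29 and 6.61 FPKM in Col-0 (1.02 ± 0.09), whereas NIA2 did not pass the test at 0.11. The cytosolic glutamine synthetase GLN1;1 was measured at 82.6, 82.3 and 84.3 FPKM in dpe2/phs1, against 25.1, 31.1 and 28.0 FPKM in Col-0 (1.54 ± 0.09), and the plastidial GLN2 was lower at a log2 fold change of -0.82. GLU1, the ferredoxin-dependent glutamate synthase of photorespiration, was at 156, 166 and 151 FPKM in dpe2/phs1, against 607, 306 and 437 FPKM in Col-0 (-1.45 ± 0.21), with uneven Col-0 values. Iron homeostasis genes had 5 higher and 2 lower of 15 tested and a median of 0.02. These values lay near those of all genes tested, with 26.7% higher, 17.39% lower and a median of 0.06. The higher members numbered 3 with each dP replicate left out in turn or without wP replicate 3, and the lower ones 5 with quantile normalization and 1 without dP replicate 3. FER1, a ferritin, was measured at 231, 213 and 221 FPKM in dpe2/phs1, against 75.9, 101 and 96.3 FPKM in Col-0 (1.28 ± 0.11), and the superoxide dismutases FSD1 and CSD1 were higher by 0.91 and 0.89. The iron deficiency regulators BHLH38, BHLH39, BHLH100 and BHLH101 were below 1 FPKM in all 6 libraries.

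The 12 largest rises among genes with a symbol, with libraries that did not overlap and a mean of at least 5 FPKM in the higher genotype, were GPT2, PR1, MIOX2, SAG13, GBSS1, RD29A, HIS1-3, EARLI1, CHI (AT2G43570), MIR158A, LTI30 and POX1. Those not described above were HIS1-3, a linker histone known from drought, at 77.4, 84.0 and 77.1 FPKM in dpe2/phs1, against 6.36, 7.73 and 10.2 FPKM in Col-0 (3.17 ± 0.14), and EARLI1, a lipid transfer protein-like gene, at 38.1, 35.0 and 33.2 FPKM in dpe2/phs1, against 3.32, 3.10 and 2.93 FPKM in Col-0 (3.14 ± 0.10). The gene of the miRNA precursor MIR158A had 49 reads in dpe2/phs1 and 1 in Col-0, a ratio of 46.3 with a 95% exact interval of counting error of 7.94 to 1868, and the mature miRNA is not measured by these libraries. Because organelle genes filled the falls, the largest falls of nuclear genes were listed after values had been seen. Besides PHS1, EXPA8, BFRUCT4, AGP31, LRX3 and BCA1 they included GASA6, a gibberellin-responsive gene, at 13.3, 13.2 and 12.4 FPKM in dpe2/phs1, against 60.7, 88.3 and 81.5 FPKM in Col-0 (-2.46 ± 0.13), and TSA1 at 19.5, 25.1 and 19.5 FPKM in dpe2/phs1, against 105, 58.4 and 86.6 FPKM in Col-0 (-1.88 ± 0.20).

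The neighbourhood of the mutated loci was compared with the rest of the genome. Within 1 Mb of DPE2, 21 of 422 genes tested (4.98%) had changed more than 2-fold, and within 1 Mb of PHS1 11 of 130 (8.46%). In 104 windows of 1 Mb with at least 50 genes tested the share lay between 1.00% and 12.3%, with a median of 6.32%, and in 58 windows of 2 Mb between 2.00% and 10.9%. Both loci lay inside this range.

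The genotype effect in shoots was set beside that in young and mature leaves, which have their own Col-0 libraries, in a fit over all 24 libraries for 19575 genes. Shoots and leaves with petioles differ in tissue as well as age, and these cannot be told apart. An interaction passed the test for 7196 genes (36.8%) between shoots and young leaves, with 15.9% of all genes higher and 20.9% lower in the shoot effect, and for 9105 (46.5%) between shoots and mature leaves, with 24.6% higher and 21.9% lower. For the overlaps that follow, genes of shoots were called among 18133 genes in the fit of the 6 shoot libraries. Those of leaves were called in the fit over all 24 libraries. Of the 787 genes more than 2-fold higher in mutant shoots, 409 (52.0%) were more than 2-fold higher in mutant young leaves, or 20.8% of the 1962 such genes there (10% of those tested), and 547 (69.5%) in mature leaves, or 19.4% of 2820 (14.4%). Of the 445 genes more than 2-fold lower in mutant shoots, 124 (27.9%) were so in young leaves, or 13.9% of 890 (4.55%), and 259 (58.2%) in mature leaves, or 9.53% of 2718 (13.9%). Shoots of the Recovery Period were not used, since DPE2 and PHS1 had log2 fold changes of 0.32 and -0.12 in that pair and so did not separate the libraries as their labels do.

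**Figure D4:**
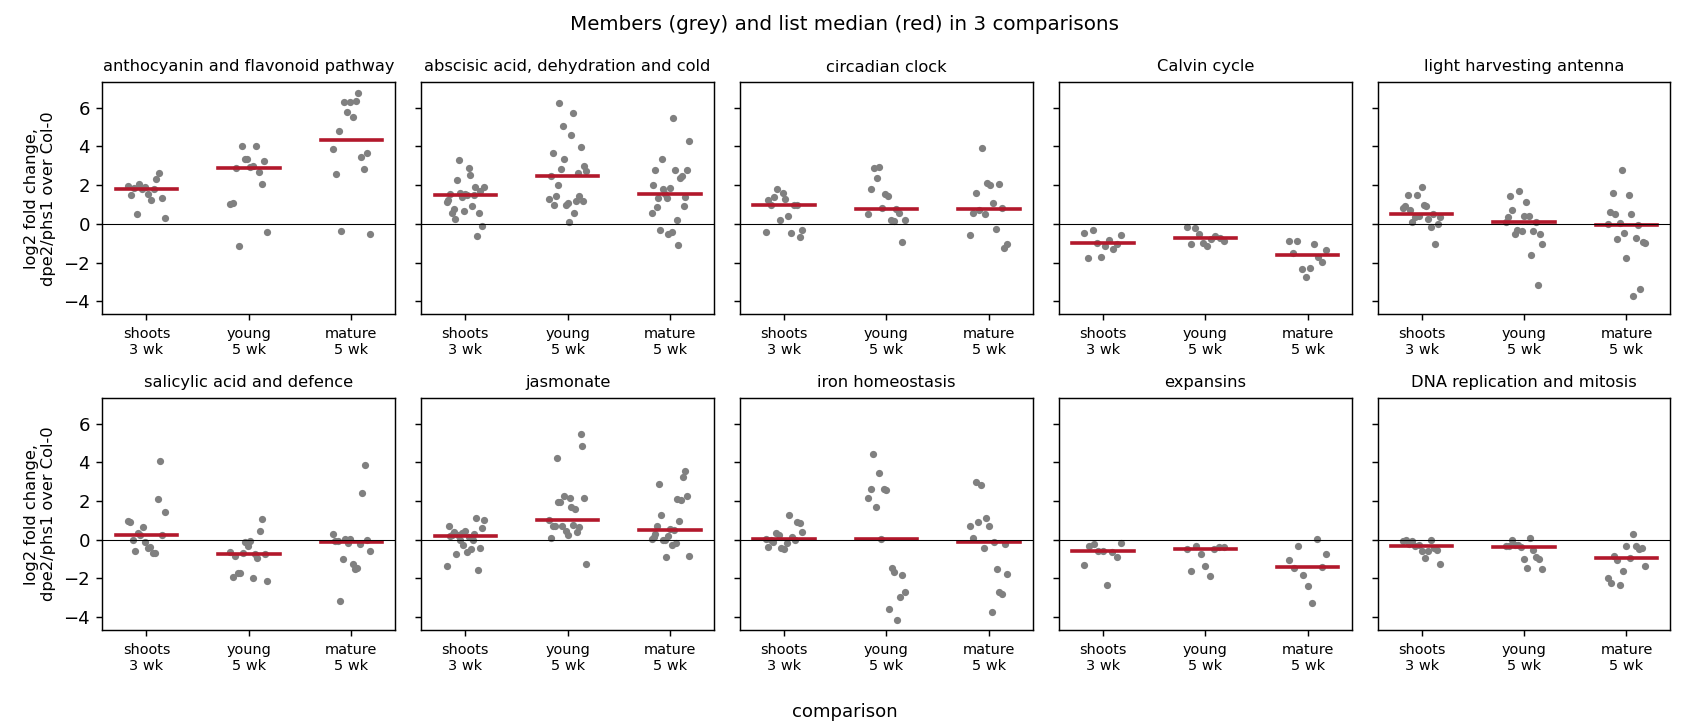
Log2 fold change of (FPKM + 1), dpe2/phs1 over Col-0, in shoots at 3 weeks, young leaves and mature leaves at 5 weeks, for the members of 10 gene lists tested in shoots (grey points) with list medians (red bars). The anthocyanin median is 1.81 in shoots, 2.90 in young leaves and 4.31 in mature leaves, and the salicylic acid median is 0.26 in shoots, -0.76 in young leaves and -0.10 in mature leaves.

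Several groups differed between shoots and leaves by the interaction test. The log2 fold change of 12 of 16 salicylic acid and defence genes was higher in shoots than in young leaves, and that of none was lower. PR1 had a log2 fold change of 4.08 in shoots and 1.08 in young leaves (limma adjusted p of the interaction 1.04e-11), and PR5 had 1.41 and -2.14 (6.31e-13). In jasmonate genes it was lower in shoots than in young leaves for 15 of 21 and higher for 1. VSP1 had -1.58 in shoots, 5.46 in young leaves and 3.23 in mature leaves (adjusted p of the interactions 1.18e-19 and 8.19e-17). Of 15 iron genes 14 differed between shoots and young leaves, against 36.8% of all genes tested. For 7 the log2 fold change was higher in shoots and for 7 it was lower, and the list median was 0.02 in both. FSD1, of those higher in shoots, had 0.91 in shoots, -2.96 in young leaves and -2.78 in mature leaves.

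In starch synthesis the effect in shoots differed from that in young leaves for 10 of 18 genes and from that in mature leaves for 9 of 18. In starch degradation it differed for 10 of 21 and 14 of 21. Over all genes tested, 36.8% differed from young and 46.5% from mature leaves, so that some of these counts lay near the shares of all genes. BAM3 had a log2 fold change of 1.12 in shoots and -1.80 in mature leaves (limma adjusted p of the interaction 3.34e-08), and GWD1 had 0.82 and -1.14 (1.45e-04). SS4 and MFP1 were lower in both shoots and mature leaves, at -1.11 and -1.21 in shoots and at -3.31 and -4.42 in mature leaves. In young leaves none of the 4 granule initiation genes, MFP1 among them, was called lower, and 1 was called higher. The log2 fold change of 1 of the 4 was lower in shoots than in young leaves. GPT2 had 4.83 in shoots, 5.66 in young leaves and 6.04 in mature leaves (interactions 6.06e-04 and 5.38e-06), so that the rise at 3 weeks was the smallest of the 3. The log2 fold change was lower in shoots than in mature leaves for 11 of 14 anthocyanin genes and higher for 2. ASN1 had 0.74 in shoots and 3.75 in mature leaves (7.83e-10), and 10 of 13 carbon starvation markers had a lower log2 fold change in shoots than in mature leaves. That of antenna genes was higher in shoots than in young leaves for 11 of 17 and lower for none.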

How the data were processed

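Total RNA of the 6 shoot samples was sequenced as paired-end reads. Per the submitters' processing notes, CASAVA, HISAT2 and featureCounts were used with TAIR10, and versions are not given in the sources used here. The authors deposited FPKM of 33044 genes for each of the 24 libraries, without pooling. The counts and the DESeq2 results of the study were not used here. Read totals were recovered from whole steps of the FPKM values, which cover counting error only.

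Linear models with a trended prior variance were fitted to log2(FPKM + 1) of the 6 libraries in limma (version 3.58.1, under R 4.3.3), for genes with a mean of at least 1 FPKM in either genotype, with Benjamini-Hochberg adjustment. The added 1 shrinks the changes of weakly expressed genes. SE are of the limma fit. Interactions were fitted over 24 libraries. Tables and plots were made with Python 3.11.15, pandas 2.3.3, numpy 2.4.6 and matplotlib 3.10.9. The fit was tested on simulated data with the same spread in both genotypes. These libraries differ in spread between genotypes, so that test does not bear on how the fit handles them. Replicate pairs differed by more than sampling noise, with a mean chi-square per gene of 2.50 to 4.31 in dP and 16.1 to 44.6 in wP.

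Members and lists were chosen with earlier results of these data known. Named genes were DPE2, PHS1, the 12 largest rises and falls (symbol, adjusted p under 0.05, no overlap, at least 5 FPKM), and from each list up to 4 members with the largest change, with others that complete a step. A few more were named after their values were seen. 6 IDs without a name in the sources were left out. Counting by strand is not stated, so overlapping genes cannot be separated. 32532 genes had the same start and end in RefSeq TAIR10.1. Alternatives were a pseudocount of 0.1, no filter, a filter of 5 FPKM, median-of-ratios, quantile and TPM scaling, all 24 libraries, a replicate block, limma-voom, removal of the length trend (loess, span 0.3) and each library left out. Metabolites were not analysed here, and 2 of the largest falls are not reported here by name.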

Additional observations from a re-analysis of the deposited data

Results flagged for a closer look

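The genotype effect of 7196 genes differed between shoots and young leaves, and that of 9105 genes between shoots and mature leaves, by the interaction term of limma at an adjusted p of 0.05. Among the largest rises and falls, 1 gene had effects past the threshold in opposite directions. PSAI, a subunit of photosystem I encoded in the chloroplast (ATCG00510), had a log2 fold change of -3.02 in shoots, 1.32 in young leaves and 1.08 in mature leaves. The differences of shoots minus young leaves of -4.34 and of shoots minus mature leaves of -4.1 passed the interaction test, with limma adjusted p of 1.80e-05 and 2.23e-05. In shoots PSAI was measured at 1.81, 1.83 and 2.71 FPKM in dpe2/phs1, against 33.5, 10.97 and 37.0 FPKM in Col-0. Chloroplast transcripts were a small and uneven part of the Col-0 shoot libraries, as described above, and the part of this in the PSAI difference was not tested.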

How the results depend on the processing

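The changes of DPE2 and PHS1 kept their direction and their side of the threshold in all 16 alternatives, and DPE2 lay between -1.25 and -1.05 and PHS1 between -2.82 and -2.51 with single libraries left out. The number of genes called lay between 6481 and 9522 in the other alternatives and between 5406 and 9389 without single libraries. Genes called higher lay between 3384 and 5234 and genes called lower between 2022 and 4155 without single libraries, the lowest without dP replicate 3 (2022) and dP replicate 1 (2061), against 3153 with all libraries and 4691 with the length trend removed. Genes changed more than 2-fold numbered 1232, and 1085 to 1463 without single libraries, but 1897 with a pseudocount of 0.1 and 1925 with limma-voom on the recovered reads. The counts of interactions stayed within 1.5 times of their values in the 8 alternatives fitted over all groups, and single libraries were not left out of that fit. limma-voom on reads recovered with fitted gene lengths, which were chosen to make all values whole within 0.001 of a read (55.0% were whole with the listed lengths), called 8066 genes.

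Same-numbered libraries did not deviate together, with correlations of -0.18, -0.21 and -0.01, so the replicate block was not used to pair them. With the replicate block, 6768 genes were called. Of the 247 single genes past the threshold, 206 stayed past it in every alternative. The single reversal was LHCB5, at -0.01 without passing the test and 0.15 with quantile normalization. Depth limits the genes that lie at a few reads in both genotypes.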

Other observations

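Genes for glucosinolates, sulfur-containing defence compounds, differed by branch. Of 14 genes of glucosinolate synthesis tested 8 were higher and 3 lower in dpe2/phs1, with a median log2 fold change of 0.34. The biosynthetic genes of the methionine-derived branch were higher, with CYP79F2 at 9.05, 10.5 and 9.47 FPKM in dpe2/phs1, against 4.62, 4.39 and 4.18 FPKM in Col-0 (0.98 ± 0.10), and MAM3 and CYP79F1 higher by 0.68 and 0.66. MYB28, a regulator of this branch, was lower at a log2 fold change of -0.45. In the tryptophan-derived branch CYP79B3 was measured at 14.5, 15.7 and 15.6 FPKM in dpe2/phs1, against 34.3, 40.2 and 40.4 FPKM in Col-0 (-1.27 ± 0.09) and CYP83B1 was lower at a log2 fold change of -1.02, whereas CYP79B2 had -0.11 and did not pass the test.

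Of 8 genes of sulfur assimilation and deficiency, 2 were higher and 2 lower, with SULTR4;2, a vacuolar sulfate transporter, lower at a log2 fold change of -1.22 and APR3 higher by 0.47. The higher members numbered 1 with quantile or TPM scaling, in the fit of all 24 libraries, with the replicate block and with each dP replicate left out in turn. Of 11 genes of phosphate starvation, 4 were higher and 1 lower. Over all genes tested 26.7% were higher and 17.39% lower, and the counts of the sulfur and phosphate lists were not far from these shares. MGD3, a galactolipid synthase, was at 7.08, 7.22 and 8.08 FPKM in dpe2/phs1, against 3.38, 3.08 and 2.70 FPKM in Col-0. RNS1, a secreted ribonuclease, was at 1.42, 1.26 and 1.98 FPKM in dpe2/phs1, against 0.1003, 0.194 and 0.191 FPKM in Col-0. With the length trend removed or without wP replicate 1, 3 genes of this list were higher and 3 lower, with a filter of 5 FPKM 2 were higher and none lower, and none was lower without dP replicate 1, dP replicate 2 or wP replicate 3. Of 8 genes of the stomatal lineage 1 was lower and none higher. The number of lower members was 4 with the length trend removed, 3 with median-of-ratios rescaling, 2 without wP replicate 2, and 0 without a filter, with a filter of 5 FPKM and with each other library left out in turn. Of 6 heat shock genes 4 were higher and 2 lower. With a filter of 5 FPKM 2 were higher and 1 lower, and 1 was also lower without a filter and with the replicate block. None was lower without dP replicate 1, dP replicate 3 or wP replicate 3. HSP70 (MED37C in the table) was measured at 15.4, 16.4 and 16.3 FPKM in dpe2/phs1, against 3.25, 2.35 and 3.48 FPKM in Col-0 (2.09 ± 0.13).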
